A study of Mus musculus with 6 samples.

Results

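The endoplasmic reticulum (ER) chaperones and XBP1 targets described here are 10 genes, Hspa5, Hsp90b1, Pdia4, Creld2, Sdf2l1, Dnajb9, Xbp1, Herpud1, Calr and Manf. They were chosen by symbol as ER-lumen chaperones and as targets of the transcription factors ATF6 and XBP1, and all 10 were found among the 32061 genes of the count table. All 10 passed the filter on low counts, which left 13839 genes to test. Messenger RNA was counted in cultured mouse biliary epithelial cells, which line the bile ducts, in 2 groups of 3 samples. The cilia-depleted cells had received 4OHT, the usual abbreviation for 4-hydroxytamoxifen, which activates a tamoxifen-dependent Cre recombinase, and the cilia-competent cells had not. Both groups were grown from hand-picked bile ducts, kept for 4 to 5 passages as organoids and then moved to flat culture on collagen. The sources used here did not give the deleted gene, the Cre driver, the strain, the animals' age or the time since 4OHT. The drug and the loss of cilia coincided in every sample and cannot be told apart. Whether samples within a group were independent cultures or animals is not labelled, and a p-value here covers the spread among these samples alone, which may be technical.

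Proteins that enter the secretory pathway fold in the ER lumen with the help of chaperones, disulfide isomerases and lectins. When unfolded proteins build up, the membrane sensors IRE1, ATF6 and PERK start the unfolded protein response. ATF6 is cut to release a transcription factor, IRE1 splices the Xbp1 mRNA so that it encodes an active factor, and PERK slows translation while favouring ATF4. ATF6 and XBP1 raise transcription of chaperone genes through the ER stress response element (ERSE), and XBP1 also raises genes for the disposal of misfolded proteins. Bile duct cells secrete ions and mucins and carry large membrane proteins, and the mucins and membrane proteins pass through the ER.

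ERSE motifs near the start site are a known route from ATF6 and XBP1 to chaperone genes. RefSeq promoter windows of GRCm38.p6, from 250 bases before to 50 after the annotated start, were at hand for 9 of the 10 genes, all but Manf. They were searched on both strands for ERSE (CCAAT and CCACG with 9 free bases between them), ERSE-II (ATTGG and CCACG with 1 free base between them) and the core of the unfolded protein response element (TGACGTGG). An exact ERSE lay in 4 of the 9 windows, those of Hspa5, Hsp90b1, Creld2 and Calr, against 0.119% of all 32851 promoters of the same length. Herpud1 held an ERSE-II, as did 0.0365% of all promoters. Because the 10 genes were chosen as targets of ATF6 and XBP1, shares above those of all promoters follow from that choice and are not a result. TGACGTGG was in 0 of the 9 windows and in 0.676% of all. The matches are shown in the direction of the motif, with its fixed letters in capitals, to set the genes that hold one apart from Pdia4, Sdf2l1, Dnajb9 and Xbp1, whose windows held neither ERSE nor ERSE-II. In Herpud1 the CCACG of the ERSE-II is also a match to the 5 letters that end ERSE.
Hspa5 ERSE, chr2:34772025-34772043: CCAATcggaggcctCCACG
Hsp90b1 distal ERSE, chr10:86705638-86705656: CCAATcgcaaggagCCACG
Hsp90b1 proximal ERSE, chr10:86705533-86705551: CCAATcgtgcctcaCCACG
Creld2 ERSE, chr15:88819520-88819538: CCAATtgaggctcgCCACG
Calr ERSE, chr8:84847075-84847093: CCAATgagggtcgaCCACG
Herpud1 ERSE-II, chr8:94386377-94386387: ATTGGgCCACG

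The whole windows of 4 genes follow. With TMM scaling Hspa5 and Herpud1 rose and Creld2 fell with such a motif present, and Dnajb9 rose most with neither motif in its window. The small rise of Hspa5 depended on the scaling, as described below. Capitals mark ERSE in Hspa5 and Creld2 and ERSE-II in Herpud1, and the Dnajb9 window has none. The Hspa5 window is chr2:34771840-34772139 on the plus strand, Creld2 is chr15:88819396-88819695 on the plus strand, Herpud1 is chr8:94386179-94386478 on the plus strand and Dnajb9 is chr12:44210019-44210318 on the minus strand. The Dnajb9 window lies within the GENCODE span of the gene (chr12:44205559-44210326), so it holds no base before the GENCODE start. Letters there were not searched.
Hspa5: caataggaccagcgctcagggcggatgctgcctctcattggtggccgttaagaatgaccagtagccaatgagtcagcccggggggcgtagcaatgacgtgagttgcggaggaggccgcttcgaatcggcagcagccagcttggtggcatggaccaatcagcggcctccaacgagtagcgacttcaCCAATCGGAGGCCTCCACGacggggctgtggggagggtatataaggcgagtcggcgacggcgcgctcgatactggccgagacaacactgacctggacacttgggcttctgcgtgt
Creld2: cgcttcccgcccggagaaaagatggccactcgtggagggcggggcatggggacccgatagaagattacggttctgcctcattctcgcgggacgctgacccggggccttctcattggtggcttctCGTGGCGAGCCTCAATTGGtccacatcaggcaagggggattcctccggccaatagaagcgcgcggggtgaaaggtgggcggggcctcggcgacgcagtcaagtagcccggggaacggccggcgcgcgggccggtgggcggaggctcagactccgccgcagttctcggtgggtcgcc
Herpud1: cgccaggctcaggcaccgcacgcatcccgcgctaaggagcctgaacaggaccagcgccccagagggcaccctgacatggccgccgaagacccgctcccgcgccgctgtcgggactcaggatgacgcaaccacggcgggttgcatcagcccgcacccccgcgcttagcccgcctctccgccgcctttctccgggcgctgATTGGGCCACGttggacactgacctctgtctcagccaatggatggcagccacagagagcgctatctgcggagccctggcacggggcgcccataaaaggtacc
Dnajb9: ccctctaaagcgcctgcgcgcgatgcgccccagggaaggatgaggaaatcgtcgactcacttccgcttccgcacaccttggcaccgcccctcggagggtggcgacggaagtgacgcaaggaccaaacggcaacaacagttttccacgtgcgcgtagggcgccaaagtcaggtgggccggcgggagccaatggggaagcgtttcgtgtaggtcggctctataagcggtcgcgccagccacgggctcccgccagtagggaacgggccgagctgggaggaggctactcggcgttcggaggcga
The 5 letters CCACG alone were present on either strand in 8 of the 9 windows and in 32.8% of all promoters. A match describes letters and not a bound site, and its absence says nothing about a factor.

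Total counts were 26293486 to 36998935 in depleted and 32199606 to 36093068 in competent samples. A floor of 3 counts corresponded to at most 0.119 CPM (read counts scaled to library size by TMM), a limit that covers counting error alone. Wdr35, a component of intraflagellar transport taken as the deleted gene from knowledge of the study, had 27.99 ± 1.601 CPM in depleted and 33.3 ± 1.98 CPM in competent cells (SD, n = 3 each; log2 change -0.25, edgeR adjusted p = 0.00245), a whole-gene count that does not resolve a lost exon. The summed level of 10 biliary markers was 14853 to 15860 CPM in depleted and 17504 to 18450 CPM in competent samples, with 2 markers higher and 6 lower, and Krt19 was low in both groups (8.33 and 12.5 CPM). The sum of 8 hepatocyte markers was 440 to 486 CPM in depleted and 288 to 355 CPM in competent samples, nearly all of it Hnf4a and Apob, while Alb had 2.57 and 2.61 CPM. The 8 fibroblast markers summed to 2.80 to 3.57 CPM in depleted and 1.27 to 1.62 CPM in competent samples, with Col1a2, Col3a1 and Lum at 0 counts in every sample. The 7 endothelial markers summed to at most 0.561 CPM, and the 7 leukocyte markers to 45.5 to 51.3 and 50.6 to 50.8 CPM, nearly all of it Csf1r, with Ptprc at 0.185 and 0.149 CPM. The part of these marker shifts in the results was not tested, and fewer cells of a type and less RNA per cell cannot be told apart in bulk samples.

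The 10 genes divided. In depleted cells 4 rose, Dnajb9, Herpud1, Xbp1 and Hspa5, and 6 fell, Creld2, Sdf2l1, Manf, Calr, Hsp90b1 and Pdia4, each at an adjusted p below 0.05 by edgeR's quasi-likelihood test. Of all genes tested, 69.2% passed this threshold, 34.9% higher and 34.3% lower in depleted cells, so a pass by itself says little about these genes. The 3 depleted and 3 competent samples did not overlap for any of the 10, as for 72.5% of all genes. By more than 1.5-fold, 2 of the 10 rose (16.9% of all genes) and 3 fell (11.6%). The median log2 change of the 10 was -0.33, against -0.01 over all genes tested. Scaling by total counts in place of TMM moved the median of all genes to -0.13 and the share of calls that were higher to 39.1%, against 50.5% with TMM. Removing the trend of change on transcript length moved that median to -0.07 and that share to 43%.

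**Figure D1:**
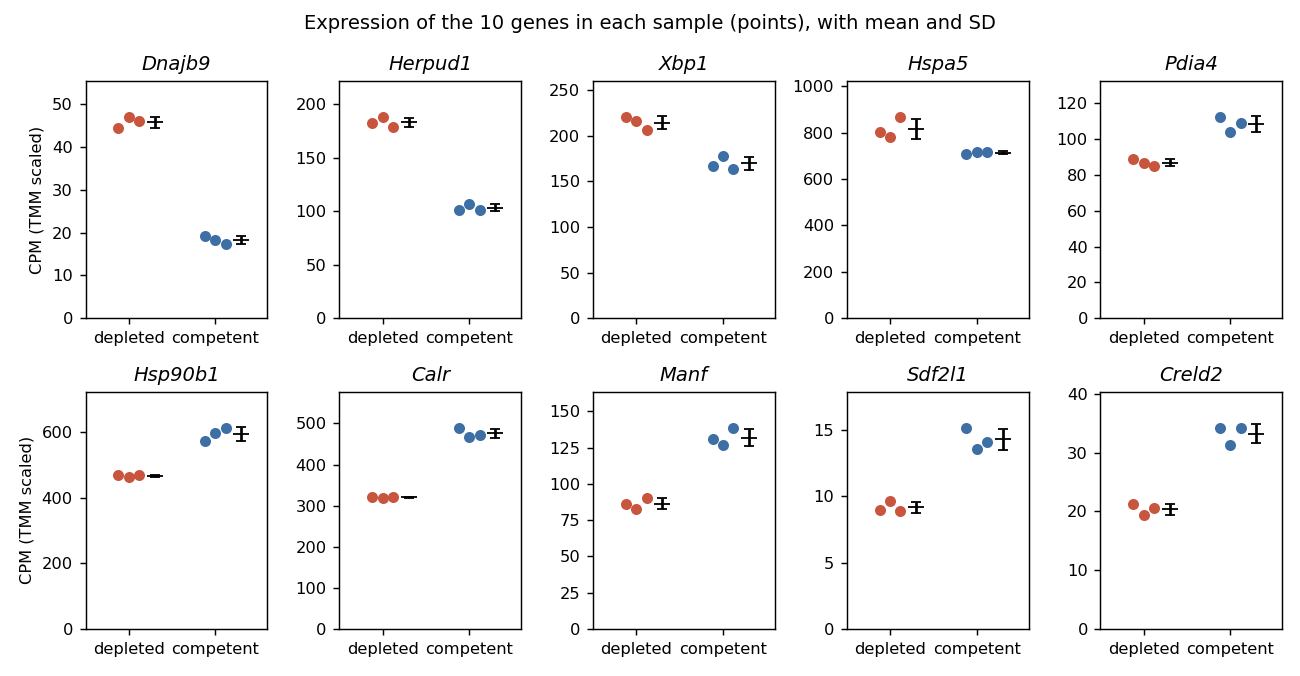
TMM-scaled CPM of each of the 10 genes in the 3 depleted (left, red) and 3 competent (right, blue) samples, with the mean and SD beside each group, ordered from the largest rise to the largest fall. Every axis starts at 0, and in every panel the lowest sample of one group lies above the highest of the other.

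Hspa5 (ENSMUSG00000026864, chr2:34771970-34777547, plus strand) encodes BiP, the HSP70 chaperone of the ER lumen that also binds the sensors. Its level was 800, 781 and 866 CPM in the depleted samples, against 707, 717 and 714 CPM in the competent samples. All depleted samples were above all competent ones, by a small margin, and the depleted samples were spread more widely. Hspa5 was 1.14-fold higher, a log2 change of 0.19 (SE 0.047, adjusted p = 0.00227). That call was lost with scaling by total counts (log2 change 0.07, adjusted p = 0.220) and with the trend of change on transcript length removed (log2 change 0.02, adjusted p = 0.731). Protein-coding genes within 0.25 log2 units of its transcript length of 3672 nt had a median log2 change of 0.10 (n = 2756).

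Dnajb9 (ENSMUSG00000014905, chr12:44205559-44210326, minus strand) encodes ERdj4, a J-domain co-chaperone of BiP and a target of XBP1. It stood at 44.4, 46.9 and 46.0 CPM in depleted samples, against 19.3, 18.4 and 17.4 CPM in competent samples. The groups were far apart for their spread, and the change was the largest of the 10, at 2.499-fold higher (log2 change 1.32, SE 0.056, adjusted p = 2.33e-10). Raw counts were 1121, 1505 and 1624 in depleted and 656, 649 and 655 in competent libraries.

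Hsp90b1 (ENSMUSG00000020048, chr10:86690209-86705509, minus strand) encodes GRP94, the HSP90 of the ER, which folds integrins and Toll-like receptors. It measured 470, 465 and 469 CPM in depleted and 574, 598 and 614 CPM in competent samples. The depleted samples were nearly equal and all lower, a 1.27-fold fall (log2 change -0.35, SE 0.042, adjusted p = 6.56e-06). Calr (ENSMUSG00000003814, chr8:84841850-84846934, minus strand) encodes calreticulin, the soluble lectin chaperone and calcium store of the lumen. Its samples gave 322, 319 and 321 CPM when depleted and 489, 466 and 471 CPM when competent. Calr was 1.48-fold lower, with no overlap between the groups (log2 change -0.57, SE 0.041, adjusted p = 3.90e-08). Pdia4 (ENSMUSG00000025823, chr6:47796141-47813430, minus strand) encodes ERp72, a protein disulfide isomerase. The depleted samples had 88.7, 86.8 and 84.9 CPM of Pdia4, against 112, 104 and 109 CPM in the competent samples. All 3 depleted values were lower, by 1.25-fold (log2 change -0.32, SE 0.044, adjusted p = 1.91e-05).

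Sdf2l1 (ENSMUSG00000022769, chr16:17130138-17132383, minus strand) encodes a lumenal partner of J-domain co-chaperones. It was the least abundant by count, with 227, 309 and 315 counts in depleted libraries and 517, 481 and 532 in competent libraries. Scaled, these were 8.99, 9.63 and 8.92 CPM in depleted and 15.2, 13.6 and 14.1 CPM in competent samples. Sdf2l1 was 1.56-fold lower without overlap (log2 change -0.64, SE 0.080, adjusted p = 8.32e-06). Creld2 (ENSMUSG00000023272, chr15:88819646-88826683, plus strand) encodes an ER-resident and secreted protein with EGF-like domains that ER stress induces. Creld2 had 21.2, 19.4 and 20.6 CPM in depleted and 34.2, 31.3 and 34.2 CPM in competent samples. It had the lowest change of the 10, 1.64-fold lower (log2 change -0.71, SE 0.060, adjusted p = 2.03e-07). Manf (ENSMUSG00000032575, chr9:106838312-106891979, minus strand) encodes a secreted factor that binds BiP and is released when ER calcium falls. Manf measured 86.3, 82.5 and 90.4 CPM in depleted and 131, 127 and 139 CPM in competent samples, and was 1.53-fold lower without overlap (log2 change -0.61, SE 0.049, adjusted p = 1.16e-07).

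Sdf2l1 and Creld2 have the shortest transcripts of the 10, at 1108 and 1366 nt, and short transcripts were lower in depleted cells in general. The median log2 change was -0.40 over 805 protein-coding genes of about the length of Sdf2l1 and -0.31 over 1225 of about that of Creld2. With the length trend removed both remained lower, at log2 changes of -0.40 (adjusted p = 0.000392) for Sdf2l1 and -0.53 (adjusted p = 9.19e-07) for Creld2. The values for Sdf2l1 (SE 0.080) and Creld2 (SE 0.060) moved by more than their SE. So did those of the other members, all but Xbp1 and Herpud1. Hsp90b1 was further lower with the trend removed, at -0.48.

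Xbp1 (ENSMUSG00000020484, chr11:5520659-5525893, plus strand) encodes the transcription factor itself. Its level was 220, 216 and 207 CPM in depleted samples, against 167, 178 and 164 CPM in competent samples. Xbp1 was 1.26-fold higher without overlap (log2 change 0.34, SE 0.046, adjusted p = 1.94e-05), and 0.21 on the log2 scale with total counts. Spliced and unspliced mRNA are counted together in these data, because IRE1 removes only 26 bases. They are shown for that reason in capitals, within the GENCODE transcript Xbp1-201 (bases 815 to 840 of 2129), and the small letters are flanking bases. The capitals run from inside 1 match to the IRE1 cleavage motif CNGCAGC to inside another.
Xbp1 spliced bases: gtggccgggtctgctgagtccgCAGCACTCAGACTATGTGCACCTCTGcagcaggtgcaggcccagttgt
The transcript held 3 matches to CNGCAGC, of which 1 pair lay 26 bases apart. Splicing at this site was not analysed here.

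Herpud1 (ENSMUSG00000031770, chr8:94386438-94395377, plus strand) encodes an ER membrane protein with a ubiquitin-like domain that serves the HRD1 ubiquitin ligase of ER-associated degradation. Herpud1 stood at 182, 188 and 179 CPM in depleted and 101, 107 and 102 CPM in competent samples. It was the next largest rise after Dnajb9, at 1.77-fold (log2 change 0.83, SE 0.042, adjusted p = 1.55e-09). Removing the length trend left it at 0.83 on the log2 scale.

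**Figure D2:**
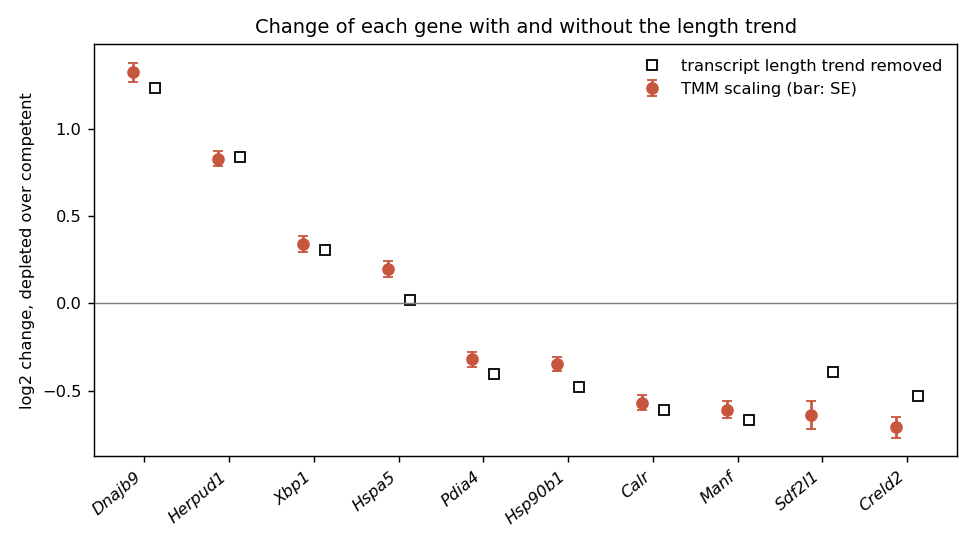
Log2 change of each of the 10 genes, depleted over competent, with TMM scaling (filled, bars are SE) and with the transcript length trend removed (open squares). Hspa5 moves to 0.02 without the trend, while the other 9 keep their side of 0, as 3 higher and 6 lower genes against 29.9% and 39.7% of all genes.

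With TMM scaling, genes with an exact ERSE and genes without were found on either side, for ERSE through Hspa5 alone. Of the 4 with ERSE, Hsp90b1, Calr and Creld2 were lower and only Hspa5 was higher. The Hspa5 call was lost with total counts (log2 change 0.07, edgeR adjusted p = 0.220). It was also lost with the length trend removed (log2 change 0.02, edgeR adjusted p = 0.731). Among the 5 whose window lacked it, Dnajb9, Xbp1 and Herpud1 were higher, and Pdia4 and Sdf2l1 were lower. Whether the annotated start is the one used in these cells was not tested, and the Xbp1 window held neither CCAAT nor CCACG on either strand. The Dnajb9 window held no base before the GENCODE start of the gene.

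Per kilobase of main transcript, the order of the 10 levels differed between the groups. In depleted cells Hspa5 was first at 222 ± 12.1 CPM per kb (SD, n = 3), then Hsp90b1 at 166 ± 0.963 and Calr at 147 ± 0.683, and these 3 did not overlap. In competent cells Calr was first at 218 ± 5.49 CPM per kb and Hsp90b1 next at 211 ± 7.16, a pair whose samples overlapped, with Hspa5 below them at 194 ± 1.502. The place of Hspa5 depends on the transcript taken, since with its shorter principal transcript of 2613 nt it would be at 312 CPM per kb in depleted and 273 CPM per kb in competent cells, first in both. Xbp1 followed in both groups, at 101 ± 3.30 in depleted and 79.7 ± 3.52 CPM per kb in competent cells. Herpud1 was at 93.9 ± 2.31 in depleted and 52.9 ± 1.74 CPM per kb in competent cells, above Manf in the depleted and below it in the competent cells. Manf and Pdia4 overlapped in depleted cells, at 38.5 ± 1.77 and 36.2 ± 0.784 CPM per kb. Dnajb9 was eighth in depleted cells, at 18.6 ± 0.515 CPM per kb, and last in competent cells, at 7.45 ± 0.379. Creld2 had 14.9 ± 0.682 in depleted and 24.4 ± 1.22 CPM per kb in competent cells, and Sdf2l1 had 8.29 ± 0.354 and 12.9 ± 0.722.

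Together the 10 genes took 0.215% ± 0.00386 of all counts in depleted and 0.247% ± 0.00234 in competent libraries (SD, n = 3 each). With TMM scaling the gap was smaller, at a summed 2251 ± 39.6 CPM in depleted and 2363 ± 14.7 CPM in competent samples. BiP made up more of that sum in depleted cells, where Hspa5 was 36.2% of the counts of the 10 genes, against 30.2% in competent cells (means, n = 3 each), with libraries at 35.3% to 37.8% in depleted and 30.04% to 30.4% in competent cells.

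Ratios to Hspa5 within a library do not depend on library scaling and show how the other members moved against BiP. Dnajb9 had 5.55, 6.005 and 5.31 counts per 100 Hspa5 counts in depleted libraries, against 2.73, 2.56 and 2.43 in competent libraries. All depleted libraries held more of this co-chaperone per BiP count, a log2 difference of 1.13. Herpud1 had 22.8, 24.1 and 20.7 counts per 100 in depleted and 14.3, 14.9 and 14.2 in competent libraries, a log2 difference of 0.63. Calr had 40.2, 40.8 and 37.1 counts per 100 in depleted and 69.2, 65.0 and 66.0 in competent libraries, a log2 difference of -0.76. The other lower genes differed by -0.90 (Creld2), -0.83 (Sdf2l1), -0.80 (Manf), -0.54 (Hsp90b1) and -0.51 (Pdia4). With the length trend removed, the difference was -0.54 for Creld2, -0.41 for Sdf2l1 and 0.29 for Xbp1. Xbp1 over Hspa5 differed by 0.14, with a mean log2 ratio of -1.93 ± 0.12 in depleted and -2.07 ± 0.058 in competent libraries (SD, n = 3 each), and its groups overlapped (exact permutation p = 0.2). The other 8 ratios did not overlap and each reached p = 0.1 in the two-sided exact permutation test, the smallest that 3 against 3 samples allow, with a Benjamini-Hochberg value of 0.113 over the 9 ratios. None could therefore pass a threshold of 0.05.

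**Figure D3:**
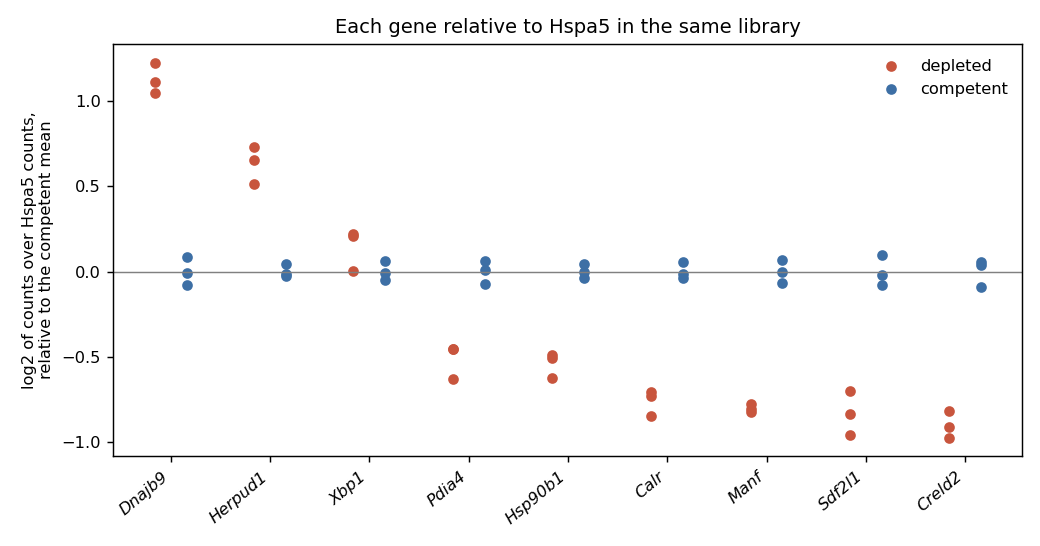
Log2 of each gene's counts over the Hspa5 counts of the same library, set relative to the competent mean, for 3 depleted (red) and 3 competent (blue) libraries. Depleted libraries lie above the competent ones for Dnajb9 and Herpud1, overlap them for Xbp1 and lie below for the other 6.

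Genes outside the 10 placed them in their pathway. Where 34.9% of all genes tested rose and 34.3% fell, 0 of 16 other ER folding factors rose and 12 fell (edgeR). The median log2 change of the 16 was -0.48. At an unadjusted p below 0.05 the counts were also 0 and 12, where 4977 of all 13839 genes were higher and 4896 lower. DESeq2 and limma-voom called 0 of the 16 higher as well. Pdia6, a disulfide isomerase, had 83.2 ± 3.95 CPM in depleted and 141 ± 1.55 CPM in competent cells (SD, n = 3 each), 1.69-fold lower (adjusted p = 5.76e-09). Ero1l, the oxidase that recharges these isomerases, was 1.602-fold lower (adjusted p = 2.39e-07). Txndc5, another isomerase, was 1.59-fold lower (adjusted p = 9.85e-09), and Dnajc3, a BiP co-chaperone that also restrains PERK, was 1.57-fold lower (adjusted p = 1.80e-07). Hyou1, an exchange factor of BiP, and Canx, the membrane lectin calnexin, did not pass. Their log2 changes were 0.07 (adjusted p = 0.169) and -0.06 (adjusted p = 0.217). Both were named after their values were seen. With the length trend removed all 16 were lower, where 39.7% of all genes were lower and 29.9% higher. Hyou1 was then at -0.14, in a fit where the median of all genes was -0.07.

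The translocation channel and the signal peptidase fell almost throughout. By edgeR 15 of 16 genes fell and 0 rose, against 34.3% and 34.9% of all genes. The median log2 change of the 16 was -0.49. At an unadjusted p below 0.05, 0 were higher and 16 lower, where 4977 of all 13839 genes were higher and 4896 lower. DESeq2 and limma-voom called 0 of the 16 higher. Spcs1, a subunit of signal peptidase, had 25.5 ± 2.88 CPM in depleted and 49.0 ± 0.958 CPM in competent cells (SD, n = 3 each), 1.91-fold lower (adjusted p = 4.86e-08). Spcs3 of the same enzyme was 1.83-fold lower (adjusted p = 1.65e-08). Ssr2, of the complex that assists translocation, was 1.83-fold lower (adjusted p = 9.49e-10), and Sec61b, of the channel itself, 1.78-fold lower (adjusted p = 3.91e-09). Spcs1 and Sec61b have short transcripts of 702 and 564 nt, and without the length trend their log2 changes were -0.65 and -0.53, against -0.93 and -0.83 with it.

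ER-associated degradation, which Herpud1 serves, was mostly lower. Among its 17 genes 10 fell, 2 rose and 5 missed the threshold, where 34.3% of all genes fell and 34.9% rose. The median log2 change of the 17 was -0.23. Edem3, which trims mannose from misfolded glycoproteins, was 1.76-fold lower, at 23.3 ± 1.82 CPM in depleted and 40.7 ± 3.65 CPM in competent cells (SD, n = 3 each; adjusted p = 3.70e-07). Its relative Edem1 was 1.47-fold lower (adjusted p = 3.76e-07). Sel1l, the partner of the HRD1 ligase, was 1.55-fold lower (adjusted p = 4.67e-07). The 2 that rose, Ube2j1 and Nploc4, changed by 0.18 and 0.13 on the log2 scale and did not pass without the length trend (adjusted p = 0.850 and 0.167). The count of genes that rose was 0 with total counts or the length trend removed. It was 1 with upper-quartile scaling or without competent replicate 1. Over all genes, 39.1% of calls were higher with total counts and 43% with the length trend removed, against 50.5% with TMM. Ube2j1 and Nploc4 were named after their values were seen.

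Among 13 sensors and activating factors 5 rose, 6 fell and 2 missed the threshold (median log2 change -0.06), which is near the shares of all genes, 34.9% higher and 34.3% lower. With the length trend removed 3 were higher and 7 lower, where 29.9% of all genes were higher and 39.7% lower. Eif2ak3, which encodes PERK, was 1.73-fold higher, at 373 ± 14.8 CPM in depleted and 216 ± 10.6 CPM in competent cells (SD, n = 3 each; adjusted p = 8.96e-09). Nfya, a subunit of the CCAAT-binding factor that works with ATF6 on ERSE, was 1.49-fold higher (adjusted p = 9.49e-08). Creb3, a membrane-tethered factor, was 1.44-fold lower (adjusted p = 7.06e-08), although 20.8% of its exon bases overlap genes on the opposite strand. Creb3l2, its relative, was 1.26-fold higher (adjusted p = 5.74e-05), a call lost without the length trend (adjusted p = 0.282). Ern1, which encodes IRE1, had a log2 change of 0.25 (adjusted p = 0.000289) that became -0.03 without the trend (adjusted p = 0.610), and Atf6 had -0.14 (adjusted p = 0.0128), which became -0.42. Ern1 and Atf6 were named after their values were seen.

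In the PERK branch 6 of 8 genes rose, 1 fell and 1 missed the threshold, where 34.9% of all genes rose and 34.3% fell. The median log2 change over the 8 was 1.02. Ppp1r15a (GADD34, which reverses the PERK signal) had 686 ± 6.64 CPM in depleted and 81.9 ± 5.55 CPM in competent cells (SD, n = 3 each), 8.37-fold higher (adjusted p = 3.53e-14). Ddit3, the transcription factor CHOP, was 7.05-fold higher (adjusted p = 1.89e-12). Chac1, which degrades glutathione, was 2.20-fold higher (adjusted p = 2.28e-07), and Sesn2, a stress-induced regulator of growth signalling, was 2.08-fold higher (adjusted p = 1.34e-09). The gene that fell was Asns, which encodes asparagine synthetase, at a log2 change of -0.51 (adjusted p = 3.54e-06), named after its values were seen.

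Receptors and coats that move cargo between ER and Golgi were mostly lower. Here 4 of 13 genes rose and 8 fell, against 34.9% and 34.3% of all genes. The median log2 change of the 13 was -0.21. With total counts, and with the length trend removed, 2 were higher and 9 lower. In these 2 fits 39.1% and 43% of the calls over all genes were higher, against 50.5% with TMM. Sec24a, a cargo adaptor of the COPII coat, was 2.51-fold higher, at a mean of 93.4 CPM in depleted and 37.2 CPM in competent cells (n = 3 each; log2 change SE 0.07; adjusted p = 2.02e-09). Kdelr3, a receptor that returns ER residents such as BiP, was 1.64-fold lower (adjusted p = 9.31e-07). Sec13 of the COPII outer coat and the GTPase gene Sar1b were each 1.43-fold lower (adjusted p = 1.44e-07 and 2.55e-06).

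Some mRNAs are cleaved by IRE1 itself, a process called regulated IRE1-dependent decay (RIDD), and 7 substrates reported in other cells were listed. Of the 6 tested, 4 fell and 1 rose (median log2 change -0.63), against 34.3% and 34.9% of all genes. Scara3, a scavenger receptor, was 2.09-fold lower, at 87.1 ± 2.57 CPM in depleted and 182 ± 5.28 CPM in competent cells (SD, n = 3 each; adjusted p = 1.51e-10). Bloc1s1, a subunit of a lysosome-positioning complex and the usual readout of this decay, was 2.02-fold lower (adjusted p = 1.06e-05), but 55.9% of its exon bases are shared with Rdh5 on the same strand, so its counts are uncertain. Hgsnat, a lysosomal acetyltransferase, was 1.42-fold lower (adjusted p = 9.75e-06). The rise of Pmp22, a membrane protein of myelin, at a log2 change of 0.53 (adjusted p = 0.0272), came with overlapping groups. The call was lost with total counts, without depleted replicate 1, without depleted replicate 2 and without competent replicate 3. Pmp22 was named after its values were seen.

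**Figure D4:**
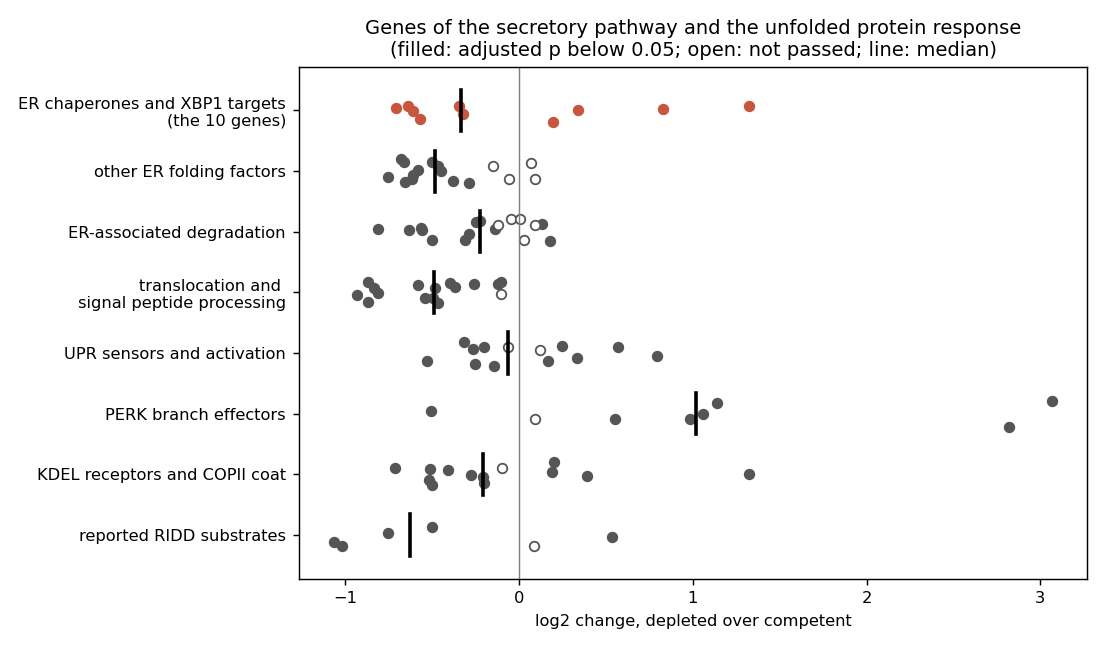
Log2 change, depleted over competent, of the genes in each list, with 1 point per gene tested, filled where the adjusted p was below 0.05, and a line at the list's median. The medians run from -0.63 for the RIDD substrates to 1.02 for the PERK branch, and the 10 genes (red) lie on both sides of 0.

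The genes whose levels ran closest to a member were found by the root-mean-square difference of centred log2 CPM over the 6 samples, among 5986 genes. For Hspa5 they were Nampt, Selenok and Reps1, at 0.022, 0.023 and 0.024 log2 units, with log2 changes of 0.20, 0.18 and 0.18. For Dnajb9 they were Prpf39, Zfp809 and Hist1h2ap, at 0.027, 0.035 and 0.038 log2 units, with log2 changes of 1.33, 1.31 and 1.35. Log2 changes close to the member's follow from picking genes by this difference, and shared regulation was not tested. Hist1h2ap belongs to a family of near-identical histone genes that can share reads, so its value is uncertain.

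Transcript length went with the changes across all genes, with a Spearman's rho of 0.323 over 13831 genes that are not independent replicates. Among the 10 members rho was 0.430, as a description only. Hsp90b1 and Manf overlap genes on the opposite strand over 10.3% and 8.85% of their exon bases, and Hsp90b1 shares a further 5.38% with genes on its own strand. Because the sources used here do not say whether counting used strand, these reads could not be assigned to a gene with certainty.

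**Figure D5:**
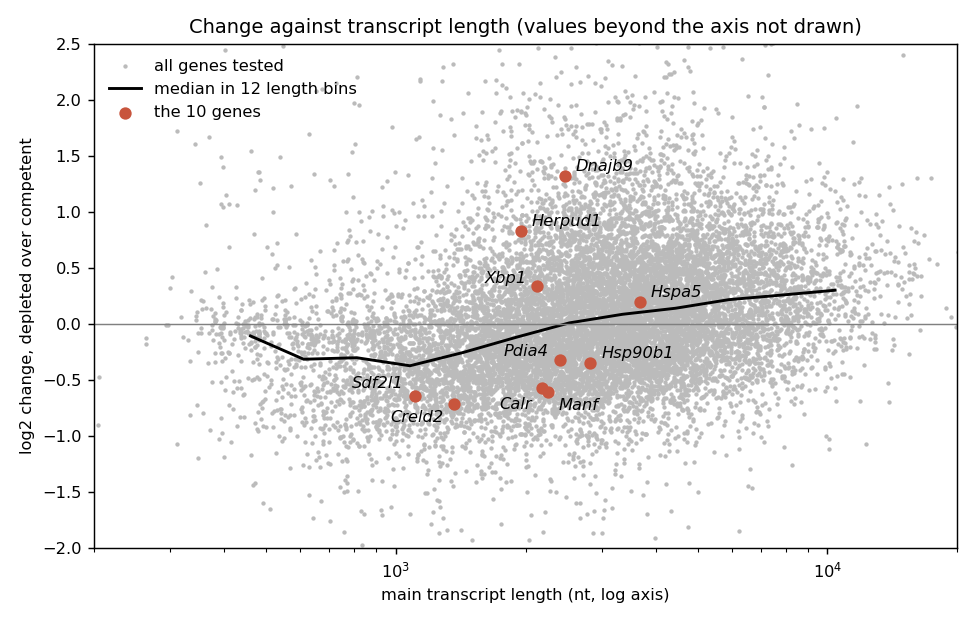
Log2 change, depleted over competent, against the length of the main transcript (log axis) for all genes tested (grey), the median in length bins (line) and the 10 genes (red). Dnajb9 and Herpud1 lie well above the line at lengths where it is near 0, Calr and Manf well below it, and Hspa5 close to it.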

How the data were processed

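Poly-A RNA of 6 samples was sequenced with a directional kit, per the labels' protocols. The deposited table holds whole-number counts per gene, not normalized. The submitters' processing notes name STAR 2.7.1a, cutadapt 1.16, featureCounts, DESeq2 1.34.0, MultiQC 1.3 and FastQC 0.11.9, with GRCm38 and without role, annotation or strand setting. Columns named WT were matched to competent and those named KO to depleted samples by group and replicate number, and 0 columns belonged to other samples. Of 32061 identifiers 32009 were found in GENCODE M21, the source of symbols, positions and transcript lengths. The longest principal transcript was taken as the main one.

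The 10 genes and all lists were chosen with earlier results of these data known. Named genes were all members, up to 4 called genes per list with the largest change at a mean log2 CPM of at least 2, the 3 genes nearest Hspa5 and Dnajb9 (mean log2 CPM of at least 5), and Wdr35; 1 gene this rule names is not reported here. The test was that of edgeR 4.0.16, run in R 4.3.3 on the counts (filterByExpr, TMM, quasi-likelihood F-test, two-sided, group as the only term), with Benjamini-Hochberg adjustment over 13839 genes and a threshold of 0.05. Adjusted p-values are from this fit where no other is named. CPM values are TMM scaled, log2 changes and folds called higher are depleted over competent, and folds called lower are competent over depleted. Ratios to Hspa5 used counts plus 0.5. The length trend was removed by a loess curve (span 0.5) per library, entered as an offset. The code was tested on simulated counts. No 2 libraries agreed within sampling noise (chi-square divided by its degrees of freedom 5.33 to 9.44 for pairs within a group). Alternatives were other scalings (DESeq2-style, upper-quartile, total counts), other filters, DESeq2 1.42.0, limma-voom (limma 3.58.1), the replicate block, leaving out each sample, and the length trend. Promoters come from RefSeq (GRCm38.p6).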

Additional observations from a re-analysis of the deposited data

How the results depend on the processing

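Directions of the 10 genes held under every alternative, and 9 of them stayed past the threshold throughout. Hspa5 did not pass with total counts (log2 change 0.066), with the length trend removed (0.018) or with that trend computed on the shortest principal transcript (0.059, an alternative chosen after seeing the data), so the count of genes higher was 3 there and 4 elsewhere, and 6 were lower in each. With the trend removed, log2 differences to Hspa5 moved by more than the replicate SD, to -0.54 (Creld2), -0.41 (Sdf2l1), 0.29 (Xbp1), 0.82 (Herpud1), -0.63 (Calr) and -0.68 (Manf), which follows from the shift of Hspa5 and of short transcripts under that fit. Leaving out each sample gave log2 changes of 0.15 to 0.23 for Hspa5 and 1.28 to 1.36 for Dnajb9, with 4 genes higher and 6 lower each time. Samples sharing a number did not deviate together (correlations -0.026 to 0.015, and 0 of 6 samples correlated best with their own number), and with the replicate block 9526 genes passed against 9576, with the members again 4 and 6. Over the other lists 18 genes were higher and 56 lower, where 34.9% of all genes were higher and 34.3% lower. Those list counts were 12 and 62 with total counts or the length trend removed. All genes moved the same way in these fits, so the shift is not particular to the lists. Of all calls, 50.5% were higher with TMM, 39.1% with total counts and 43% with the length trend removed. Counting precision was lowest for Sdf2l1, at 227 to 532 counts a library.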

Other observations

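Genes outside the 10 that share the promoter motifs moved on both sides of 0. Besides the members, 13 genes tested had an exact ERSE in their RefSeq promoter window, of which 4 were higher and 3 lower in depleted cells. Their median log2 change was 0.09, and 0.06 with the length trend removed. ERSE-II was found for 8 genes other than Herpud1, of which 3 were higher and 5 lower (median log2 change -0.38). The core TGACGTGG was found for 102 genes tested, of which 39.2% were higher and 33.3% lower (median 0.01). Among all 10357 genes tested with a promoter window, leaving out the members, 36.4% were higher and 34.9% lower, with a median of 0.01. These are counts of letters near annotated starts and carry no test.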
